A study of Homo sapiens with 12 samples.

Results

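The distal end of the long arm of chromosome 9, band 9q34, holds 59 genes that are described here as a group because their mRNAs were more abundant in HCT116 cells without *miR-34a/b/c* than in the matching *WT* cells. The 59 genes were chosen by these measured differences, from a list of symbols lying between 127.7 and 138.3 Mb of chromosome 9 (GRCh38), and reaching 20 counts in some library. All 59 were found and passed this minimum. They are 59 of 194 tested genes of the same stretch, and of 16123 tested genes in all. Since the list was drawn up with the difference between *miR-34a/b/c-KO* and *WT* cells known, this difference is given below as a description and without a test, under DMSO as well as under 5-FU. The changes after 5-FU and the genes outside the region that act together with the listed ones are tested. The 5-FU changes were measured in the same libraries as the difference that chose the genes.

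HCT116 is a cell line established from a human colorectal cancer and carries functional p53. In the study, KO cells (*miR-34a/b/c-KO*) were set against *WT* cells. In the KO cells the regions that encode *miR-34a* and *miR-34b/c* had been deleted with CRISPR-Cas9, and both genotypes were kept for 48 h with 5-FU (4 µM), a pyrimidine analog that disturbs nucleotide synthesis and activates p53, or with DMSO as control. 3 KO clones were grown from single transfected cells, and 3 *WT* clones from cells transfected without guides. Whether the replicates sequenced are these clones or cultures of 1 clone is not given in the sources used here. In the latter case genotype and clone cannot be told apart, and the spread between replicates may be partly technical. The file labelled *WT* 5-FU replicate 1 held the same counts as *WT* DMSO replicate 3 (0 of 60580 genes differed) and was left out. This left replicates 2 and 3 in that group and 3 libraries in each of the others, 11 in all.

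Band 9q34 is rich in genes and carries many that every cell uses. Among the 59 are a transporter of cargo out of the endoplasmic reticulum (ER), enzymes that make and recycle the lipid carrier of glycosylation, parts of the nuclear pore, of Mediator and of the RNA polymerase III machinery, mitochondrial enzymes, and signaling genes such as *ABL1*, *TSC1* and *TRAF2*. The genes do not form a pathway. What they have in common by construction is their neighborhood on the chromosome and the direction of their difference. *miR-34a* and *miR-34b/c* are microRNAs induced by p53, which bind short matches in the 3′ UTRs of mRNAs and lower their abundance or translation.

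The mature sequences of 2 of the deleted microRNAs are shown, *miR-34a* because its seed defines the sites searched for in the members and *miR-34b* because its seed differs. They were taken from RefSeq (GRCh38.p14), and the capitals mark the seed, bases 2 to 8. *miR-34a* lies at chr1:9151735-9151756 on the minus strand and *miR-34b* at chr11:111512950-111512972 on the plus strand, and the seed of the latter is shifted by 1 base and was not searched for.
miR-34a-5p: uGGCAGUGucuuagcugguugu
miR-34b-5p: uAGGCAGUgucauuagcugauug

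The complement of the *miR-34a* seed, CACTGCC, was found in the annotated 3′ UTR (GENCODE release 44) of 14 of the 59 members (23.7%), against 2321 of 13250 tested genes with a 3′ UTR (17.5%). In 4 members the match was followed by an A, which extends it to an 8mer. These 4 sites are shown with the match in capitals, on the strand of the gene. They lie at chr9:129635976-129635982 (minus strand, *ASB6*), chr9:130139508-130139514 (plus strand, *GPR107*), chr9:133098243-133098249 (minus strand, *RALGDS*) and chr9:134438594-134438600 (plus strand, *RXRA*), where the positions give the 7 bases of the match.
ASB6: gccccaggtctcCACTGCCaag
GPR107: ttttagatggttCACTGCCagg
RALGDS: ccaggtgtgggtCACTGCCacc
RXRA: gcccctcccaggCACTGCCagg

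The 14 members with a site had a median log2 difference between KO and *WT* cells of 0.67 in DMSO, and the 45 members without a site had a median of 0.59. Members with a site also had longer 3′ UTRs, with a median of 1821 bases against 1238. As the members were chosen for this difference, nothing on the sites is read from it. A match of letters is not a measured binding site.

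Several members are neighbors that start back to back, so that the stretch between their start sites lies before both genes. For 3 such pairs the bases between the annotated starts are short enough to show (RefSeq, GRCh38.p14, plus strand), because the responses of both genes are compared below. In GENCODE release 44 the outermost starts of *DOLK* and *NUP188* are also 95 bases apart, but those of *FNBP1* and *GPR107* are 10236 bases apart, and *DDX31* and *GTF3C4* overlap, so that the shorter 2 stretches hold for RefSeq starts only. The capitals mark GGGCGG on either strand, a motif that GC-rich promoters often hold. The stretches are chr9:130053880-130053905 for *FNBP1* and *GPR107* (26 bases), chr9:132669984-132670034 for *DDX31* and *GTF3C4* (51 bases), and chr9:128947604-128947698 for *DOLK* and *NUP188* (95 bases).
FNBP1 and GPR107: tttcaccccggacgtGGGCGGgagag
DDX31 and GTF3C4: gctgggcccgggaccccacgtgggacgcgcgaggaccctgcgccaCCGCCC
DOLK and NUP188: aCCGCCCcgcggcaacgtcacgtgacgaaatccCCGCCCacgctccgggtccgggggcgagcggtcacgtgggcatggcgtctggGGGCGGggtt

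In windows from 250 bases before to 50 bases after the annotated starts, GGGCGG on either strand was found in 45 of the 51 members that matched the promoter table (88.2%) and in 48.3% of all 27326 genes of that table, which also holds genes that HCT116 cells do not express. CCAAT on either strand was found in 19 of the 51 (37.3%) and in 39.7% of all genes. A gene with several starts was counted once if any of its windows held the motif.

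The 11 libraries held 22831415 to 39064210 counts on genes. The least counted member, *NAIF1*, had 247 counts in its lowest library and the most counted, *SET*, had 32780 in its highest. Counting error weighs more on the least counted members. The standard error (SE) of the log2 difference between KO and *WT* cells in DMSO was 0.09 for *NAIF1* and 0.05 for *SET*. Values are CPM, the counts of a gene relative to the scaled total of its library. The precursor genes *MIR34A*, *MIR34B* and *MIR34C* had 0 counts throughout, also in *WT* cells, so that the deletion could not be checked in these data. Of 8 epithelial markers 7 were tested. *EPCAM* had 306 to 424 CPM, but *VIL1* of the same list had 0 to 53 counts and *LGR5* 0 to 3. The markers of other cells *PTPRC*, *CD3E*, *PECAM1*, *COL1A2*, *DCN* and *HBB* had 0 to 9 counts. The summed level of *VWF*, *COL1A1* and *ACTA2*, the markers of other cells that were tested, was 28 to 33.6 CPM in *WT* and 57 to 60 CPM in KO cells in DMSO, and 77.5 to 89.3 and 101 to 105 CPM in 5-FU. Their part in the results was not tested. Of the 59 members 21 overlap another tested gene on the opposite strand, and whether strand was used in counting is not given in the sources used here.

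All 59 members were higher in KO than in *WT* cells under DMSO, by a median log2 difference of 0.60, which is 1.52-fold. Whole cultures were sequenced, so that more cells with a transcript and more transcript per cell cannot be told apart. The median over all 16123 tested genes was 0.03, and 53.0% of them lay above 0. Under 5-FU the median of the members was 0.56 (1.48-fold), 58 of 59 lay above 0, and the median of all genes was -0.05. The exception was *NAIF1*, which encodes a nuclear factor able to induce apoptosis, at -0.17 ± 0.10 (SE). In DMSO the lowest KO library lay above the highest *WT* library for each of the 59 members, an order that 30.1% of all tested genes showed. In 5-FU this held for 57 members, *NAIF1* and *PKN3* being the exceptions, and for 27.9% of all tested genes. These counts restate how the list was made.

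The differences of the members in DMSO ranged from 0.07 to 1.19. Between 0.3 and 0.9 on the log2 scale lay 49 of the 59 differences in DMSO, and 56 were above 0.25. Single genes were called here by the thresholds of the study (FDR below 0.05 and more than 1.5-fold), applied in edgeR. By these criteria 35 members passed as higher and 0 as lower in DMSO, beside 9.10% of all tested genes that passed as higher and 4.97% as lower. The minimum of 1.5-fold is 0.585 on the log2 scale and falls close to the median of the members, and by FDR alone 57 of the 59 passed as higher, beside 24.5% of all tested genes as higher and 21.9% as lower. In 5-FU 22 members passed both criteria as higher, beside 7.58% of all tested genes as higher and 10.6% as lower. By FDR alone 55 passed as higher in 5-FU, beside 21.6% of all genes as higher and 28.0% as lower. Nothing is read from these counts, since the same comparison chose the genes.

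The plot of all members in each library shows how even the difference was between replicates. Relative to the mean of the *WT* DMSO libraries, the median of the 59 members was -0.02 to 0.01 in the *WT* DMSO libraries themselves and 0.58, 0.62 and 0.62 in the KO DMSO libraries. It was 0.13 and 0.07 in the *WT* 5-FU libraries and 0.62, 0.67 and 0.67 in the KO 5-FU libraries. The KO libraries of both treatments therefore lay together, and the *WT* libraries of both treatments lay together. Summed over the members, the level was 4494 to 4541 CPM in *WT* and 6560 to 6732 CPM in KO cells in DMSO, and 4299 to 4553 CPM and 6461 to 6602 CPM in 5-FU.

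The members were not apart from their neighbors. The 135 tested genes of the region that are not on the list had a median log2 difference of 0.60 in DMSO and 0.43 in 5-FU, and 127 and 111 of them lay above 0. Of these, 84 had at least the mean level of the lowest member (12 CPM), and their medians were 0.56 in DMSO and 0.49 in 5-FU, with 81 and 80 above 0. The 401 tested genes on the rest of chromosome 9 had medians of 0.02 and -0.04. Over the 23 chromosomes, leaving out the region, the medians ranged from -0.13 to 0.04 in DMSO and from -0.21 to 0.01 in 5-FU. Chromosome 8 had the lowest median under both treatments.

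In windows of 2 Mb counted from the start of the region, the median of all tested genes in DMSO was -0.17, -0.07 and 0.13 in the 3 windows before the start. It was 0.73, 0.53, 0.59, 0.42, 0.62 and 0.54 in the windows from the start to the end of the chromosome, the last of which held 3 tested genes. In 5-FU the windows before the start had -0.02, -0.14 and 0.11, and those after it 0.47, 0.47, 0.43, 0.57, 0.51 and 0.50. The differences of the members showed little relation to their position, with a Pearson correlation of -0.133 in DMSO and 0.0943 in 5-FU over the 59 genes, which share the libraries they were measured in. Without the members, which were chosen for being high, the windows from the start on had 0.58, 0.47, 0.63, 0.51, 0.65 and 0.54 in DMSO.

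On the inner side of the region *NIBAN2* and *LRSAM1*, which were picked after their values had been seen, were at 0.05 ± 0.06 (SE) and 0.13 ± 0.06 in DMSO. The first tested genes inside are not on the list. They were *CFAP157* at 0.24 ± 0.24, *TOR2A*, a relative of the members *TOR1A* and *TOR1B*, at 0.95 ± 0.07, and *SH2D3C* at 0.94 ± 0.21. At the distal end *CACNA1B*, a calcium channel gene, was at 0.54 ± 0.13, and the pseudogene *TUBBP5* at 1.06 ± 0.13 is a near copy of other tubulin genes, so that its counts are uncertain. The pseudogene *FAM157B* at -0.12 ± 0.77 had too few counts for a direction. Among region genes at the members' levels, the lowest difference in DMSO was that of *ASS1* (-0.23), an enzyme of arginine synthesis, and the highest that of *AJM1* (1.60).

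The members with roles in the ER, the Golgi and glycosylation had the largest median difference, 0.84 in DMSO and 0.81 in 5-FU over 10 genes. *SURF4*, a receptor that loads secretory cargo at ER exits, had 245, 250 and 243 CPM in *WT* and 563, 563 and 563 CPM in KO cells in DMSO. In 5-FU it had 192 and 168 CPM in *WT* and 414, 421 and 418 CPM in KO cells. Every KO library was above every *WT* library of the same treatment, and the log2 difference was 1.19 ± 0.05 (SE) in DMSO and 1.22 ± 0.06 in 5-FU, the largest of all members in DMSO. *ZDHHC12*, which attaches palmitate to proteins, had 29.2, 35.9 and 28.9 CPM in *WT* and 67.2, 74.9 and 69.4 CPM in KO cells in DMSO, a difference of 1.18 ± 0.10. *POMT1*, which starts O-mannosyl glycans on dystroglycan, had 24.9, 24.7 and 23.8 against 47.2, 49.1 and 47.2 CPM, a difference of 0.97 ± 0.07. *DOLPP1*, which recycles dolichyl pyrophosphate, had 21.5, 21.2 and 24.8 against 41.2, 43.8 and 40.4 CPM, a difference of 0.89 ± 0.07. None of these 3 genes overlapped between genotypes in either treatment. *DOLK*, the kinase that makes dolichyl phosphate, was at 0.87 ± 0.08, *GPR107*, a Golgi protein of retrograde transport, at 0.81 ± 0.05, *TOR1A*, an ATPase of the ER lumen, at 0.77 ± 0.05, and *GOLGA2*, the Golgi matrix protein GM130, at 0.75 ± 0.05. *SEC16A*, which organizes ER exit sites, at 0.40 ± 0.05 and *TOR1B* at 0.39 ± 0.07 were the lowest of the group.

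The 9 genes of mitochondria and metabolism had a median of 0.77 in DMSO and 0.57 in 5-FU. *CRAT*, carnitine acetyltransferase, had 24.5, 26.1 and 24.8 CPM in *WT* and 52, 54.6 and 49.8 CPM in KO cells in DMSO, and 19.4 and 15.9 against 35.6, 40.4 and 37.2 CPM in 5-FU. Its log2 difference was 1.05 ± 0.08 and 1.09 ± 0.09, with no overlap. *PTGES2*, a membrane-associated prostaglandin E synthase and the member of this group with the most counts, had 96.6, 95.6 and 101 against 156, 178 and 167 CPM in DMSO, a difference of 0.77 ± 0.07. *SLC27A4*, which activates and imports long-chain fatty acids, and *AGPAT2*, which makes phosphatidic acid, were both at 0.80 (± 0.07 each). *ENDOG*, a mitochondrial nuclease, *AK1*, a cytosolic adenylate kinase, *COQ4*, which is needed for coenzyme Q, and *SLC25A25*, a carrier of ATP-Mg and phosphate, lay between 0.73 and 0.78, and *SURF1*, an assembly factor of cytochrome c oxidase, at 0.59 ± 0.05.

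The 14 genes of transcription, chromatin and DNA repair had a median of 0.50 in DMSO and 0.53 in 5-FU and included several of the smallest differences. *SET*, a histone chaperone and inhibitor of the phosphatase PP2A, had 894, 909 and 843 CPM in *WT* and 1057, 1077 and 1079 CPM in KO cells in DMSO, a difference of 0.28 ± 0.05. *SET* has processed copies elsewhere in the genome, between which the counting could split reads. *TTF1*, which ends transcription of ribosomal RNA genes, had 44.4, 47.3 and 40.9 against 49.1, 47.6 and 48 CPM, a difference of 0.13 ± 0.06, so that the groups were separate by less than their own spread. *NAIF1* had 10.8, 11.4 and 10.7 against 12.7, 12.8 and 14.2 CPM, a difference of 0.27 ± 0.09. The largest differences of the group were those of *RXRA*, a nuclear receptor for retinoids (0.68 ± 0.06), *CDK9*, the kinase that releases paused RNA polymerase II (0.59 ± 0.07), *SWI5*, a recombination factor (0.59 ± 0.10), *GTF3C4*, a subunit of the RNA polymerase III factor TFIIIC (0.59 ± 0.05), and *EHMT1*, a histone H3K9 methyltransferase (0.59 ± 0.06). *MED27* and *MED22* of Mediator, *GTF3C5* of TFIIIC, *BRD3*, a reader of acetylated histones, *FUBP3*, a DNA-binding protein related to the *MYC* regulator FUBP1, and *WDR5*, a shared subunit of H3K4 methyltransferases, lay between 0.30 and 0.55.

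The 6 genes of the nuclear pore, RNA modification and helicases had a median of 0.39 in DMSO and 0.45 in 5-FU. *NUP214*, a nucleoporin of the cytoplasmic face of the pore, had the smallest difference of all members, with 49.8, 48 and 46.6 CPM in *WT* and 51.4, 50.4 and 50 CPM in KO cells in DMSO (0.07 ± 0.05). In 5-FU it had 47.1 and 46.1 against 56.1, 58.7 and 61.1 CPM (0.33 ± 0.06). *NUP188*, a scaffold nucleoporin, had 221, 225 and 221 against 273, 292 and 258 CPM in DMSO (0.30 ± 0.05). *URM1*, a ubiquitin-like protein that gives sulfur to tRNA, was at 0.77 ± 0.07, *TRUB2*, a mitochondrial pseudouridine synthase, at 0.49 ± 0.06, *DDX31*, a nucleolar helicase, at 0.43 ± 0.06, and *GLE1*, a factor of mRNA export, at 0.34 ± 0.05.

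The 10 genes of signaling and channels had a median of 0.62 in DMSO and 0.57 in 5-FU. *RALGDS*, an exchange factor that links RAS to the RAL GTPases, had 55.2, 52.2 and 58 CPM in *WT* and 92.5, 99.1 and 99.4 CPM in KO cells in DMSO (0.81 ± 0.06). *TSC1*, a subunit of the complex that restrains mTORC1, had 45.8, 40.4 and 45 against 76.9, 80.7 and 74.5 CPM (0.82 ± 0.06), and *LRRC8A*, the obligatory subunit of volume-regulated anion channels, was at 0.82 ± 0.07. *INPP5E*, a phosphoinositide phosphatase of cilia, *RAPGEF1*, an exchange factor for RAP1, and *TBC1D13*, a GTPase-activating protein for RAB35, lay between 0.58 and 0.72. *VAV2*, a guanine nucleotide exchange factor, the tyrosine kinase *ABL1*, the kinase *PKN3* and *TRAF2*, an adaptor of tumor necrosis factor receptors, lay between 0.36 and 0.40. *PKN3* had 67.8 and 50.2 CPM in *WT* and 67.9, 65.2 and 67.3 CPM in KO cells in 5-FU, so that its groups overlapped there.

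All 5 genes of the ubiquitin system lay between 0.60 and 0.80 in DMSO. *ANAPC2*, the cullin of the anaphase-promoting complex (APC/C), had 62.2, 57.7 and 57 CPM in *WT* and 88.5, 94.5 and 88.5 CPM in KO cells (0.62 ± 0.07). The others were *USP20*, a deubiquitinase (0.80 ± 0.07), *ZER1*, a substrate receptor of a CUL2 ligase (0.73 ± 0.06), *ASB6*, a SOCS box protein (0.65 ± 0.06), and *UBAC1*, a partner of the ligase KPC1 (0.60 ± 0.05). The 5 genes of the cytoskeleton and of membrane shape had a median of 0.37 in DMSO and 0.32 in 5-FU. *SH3GLB2*, an endophilin (0.79 ± 0.06), and *FNBP1*, which couples membrane bending to actin (0.64 ± 0.05), were above *SPTAN1*, the alpha chain of non-erythroid spectrin (0.37 ± 0.05), *CAMSAP1*, which binds microtubule minus ends (0.31 ± 0.06), and *ODF2*, a centriole appendage protein (0.14 ± 0.05). *SPTAN1* had 127, 134 and 126 against 172, 163 and 162 CPM in DMSO, and 191 and 191 against 198, 201 and 195 CPM in 5-FU. *ODF2* had 95.3, 104 and 94.2 against 106, 111 and 105 CPM in DMSO.

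The differences in DMSO and in 5-FU, which come from separate libraries, had a Pearson correlation of 0.578 across the 59 genes. As the members were chosen for these differences, the correlation is a description and was not tested. *SURF4*, *CRAT*, *DOLPP1* and *DOLK* had values of 0.86 to 1.22 under both treatments. *LRRC8A* (1.27 ± 0.08), *SLC25A25* (1.17 ± 0.07), *TOR1A* (1.09 ± 0.06) and *RALGDS* (1.05 ± 0.07) were high in 5-FU, where they exceeded their DMSO values of 0.73 to 0.82. *URM1* (0.26 ± 0.07), *MED22* (0.10 ± 0.08) and *SPTAN1* (0.05 ± 0.05) were among the lowest there.

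The response of the members to 5-FU was tested in each genotype with edgeR. In *WT* cells 4 of 59 rose and 2 fell by the criteria of FDR and fold change, whereas 18.5% of all tested genes rose and 9.38% fell. In KO cells 2 rose and 0 fell, whereas 13.3% of all tested genes rose and 12.0% fell. Of the 84 other region genes at the members' levels, 20.2% rose and 3.57% fell in *WT* cells. In KO cells 11.9% of these 84 rose and 8.33% fell. Of the members 42 in *WT* and 47 in KO cells had an unadjusted p below 0.05 in edgeR, beside 10307 and 10298 of all 16123 tested genes. With DESeq2 4 members rose and 3 fell in *WT* cells, beside 2707 and 1612 of all tested genes. In KO cells 4 members rose and 0 fell with DESeq2, beside 2296 and 1568 of all tested genes. By FDR alone, 24 rose and 13 fell in *WT* cells, beside 31.9% and 28.3% of all genes. By FDR alone, 24 rose and 19 fell in KO cells, beside 26.6% and 33.8% of all genes. The median 5-FU change of the members was 0.08 in *WT* and 0.09 in KO cells, beside 0.03 and -0.06 over all genes. Most members thus changed after 5-FU by less than 1.5-fold.

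*AK1*, which balances adenine nucleotides, had the largest change. It went from 25.6, 24.7 and 23 CPM in *WT* DMSO to 103 and 86.6 CPM in *WT* 5-FU libraries, a log2 change of 1.96 ± 0.09 (edgeR FDR = 1.27e-11). KO cells went from 36.4, 45.1 and 42.4 to 129, 129 and 132 CPM, a change of 1.65 ± 0.08 (edgeR FDR = 2.33e-11). All 5-FU libraries were above all DMSO libraries in both genotypes.

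*RALGDS* rose from 55.2, 52.2 and 58 to 124 and 106 CPM in *WT* cells, a change of 1.06 ± 0.07 (edgeR FDR = 1.01e-09). KO cells went from 92.5, 99.1 and 99.4 to 235, 247 and 238 CPM, a change of 1.30 ± 0.06 (edgeR FDR = 2.02e-11). The *WT* 5-FU libraries and the KO DMSO libraries were close to each other, and the KO 5-FU libraries were above all others.

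*SLC27A4* rose in *WT* cells from 51.3, 47.8 and 49.2 to 95.7 and 76.5 CPM (0.80 ± 0.08, edgeR FDR = 2.46e-07). KO cells had 80.1, 90.9 and 86.3 CPM in DMSO and 127, 125 and 131 CPM in 5-FU, a change of 0.57 ± 0.07 that stayed just under the minimum fold change. *ZER1* rose in *WT* cells from 31.8, 31.7 and 31.7 to 50.5 and 47 CPM (0.62 ± 0.06, edgeR FDR = 4.00e-07). Its groups did not overlap, and without replicate 2 of the *WT* 5-FU libraries its change was 0.56 and below the minimum fold change.

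*SET* fell in *WT* cells from 894, 909 and 843 to 547 and 601 CPM (-0.62 ± 0.05, edgeR FDR = 4.84e-08). The KO values were 1057, 1077 and 1079 CPM in DMSO and 724, 724 and 730 CPM in 5-FU, a change of -0.56 ± 0.05 that stayed under the minimum fold change. The *WT* change was -0.56 without replicate 2 of the *WT* 5-FU libraries. *TRAF2* fell in *WT* cells from 29.2, 29.4 and 28.1 to 20.2 and 18.2 CPM (-0.59 ± 0.08, edgeR FDR = 1.30e-05), at the limit of the minimum fold change. Its change was -0.51 without *WT* 5-FU replicate 3, -0.58 without *WT* DMSO replicate 1 and -0.57 without *WT* DMSO replicate 2, none of which passed. The KO values were 34.3, 40.4 and 36.8 CPM in DMSO and 29.9, 31 and 29.7 CPM in 5-FU (-0.30 ± 0.07). The 5-FU libraries of both genes were below the DMSO libraries of the same genotype.

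In the 7 functional groups the median 5-FU change lay between -0.04 and 0.50 in *WT* and between -0.19 and 0.23 in KO cells. The 5 ubiquitin genes had the highest median in *WT* cells, and all 5 had a change above 0 in both genotypes. The 9 genes of mitochondria and metabolism spanned the widest range, from -0.50 (*CRAT*) to 1.96 (*AK1*) in *WT* cells. Across the 59 members the changes in *WT* and KO cells, from separate libraries, had a Pearson correlation of 0.827, and 49 had the same sign. *AK1* and *RALGDS*, which lie apart from the other members, weigh on this correlation, and it was not computed without them.

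The difference between the 5-FU changes of both genotypes is the interaction. It passed both criteria for 0 of 59 members in edgeR, beside 10.1% of all tested genes. Among the 84 other region genes at the members' levels, 0 passed with a higher and 9.52% with a lower change in KO cells. An unadjusted p below 0.05 in edgeR was reached by 30 members, beside 6203 of all 16123 tested genes. DESeq2 called 1 member, *NUP188*. Of all tested genes DESeq2 called 703 with a higher and 674 with a lower change in KO cells. By FDR alone 18 members passed in edgeR, 8 with a higher and 10 with a lower change in KO cells, beside 26.1% of all tested genes in either direction. The interaction is also the difference between the 5-FU and the DMSO values of the KO over *WT* difference that chose the members. For the 5 members with the smallest FDR the values per library are given here.

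*NUP188* had 221, 225 and 221 CPM in *WT* DMSO and 153 and 146 CPM in *WT* 5-FU libraries, a change of -0.57 ± 0.06 that passed by FDR alone (edgeR FDR = 4.15e-07). It had 273, 292 and 258 CPM in KO DMSO and 267, 259 and 270 CPM in KO 5-FU libraries, which overlap (-0.05 ± 0.05). The interaction was 0.52 ± 0.08 (edgeR FDR = 0.000162). *DOLK*, which starts 95 bases away in the opposite direction, had 15.6, 14.7 and 13.3 CPM in *WT* DMSO and 17.5 and 15.3 CPM in *WT* 5-FU libraries. The interaction of *DOLK* was -0.01 ± 0.12. For 29 nuclear pore and mRNA export genes outside the region, the median 5-FU change was -0.33 in *WT* and -0.05 in KO cells. Their median interaction was 0.28. By FDR alone 17 of the 29 had a higher and 0 a lower change in KO cells, beside 26.1% of all tested genes in either direction.

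*URM1* had 36.9, 40.9 and 35.9 CPM in *WT* DMSO and 45.2 and 39.7 CPM in *WT* 5-FU libraries, which overlap. The KO values were 64, 67 and 62 CPM in DMSO and 50.3, 52.6 and 49.8 CPM in 5-FU, without overlap (-0.34 ± 0.07). The interaction was -0.50 ± 0.10 (edgeR FDR = 0.00170).

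*SLC25A25* had 27.7, 26.4 and 26.5 CPM in *WT* DMSO and 27 and 28.1 CPM in *WT* 5-FU libraries. The KO values were 43.2, 45.7 and 44.4 CPM in DMSO and 59.6, 64.9 and 60.9 CPM in 5-FU (0.48 ± 0.06). The groups overlapped in *WT* and not in KO cells, and the interaction was 0.44 ± 0.09 (edgeR FDR = 0.00216).

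*SPTAN1* went from 127, 134 and 126 to 191 and 191 CPM in *WT* cells (0.57 ± 0.05) and from 172, 163 and 162 to 198, 201 and 195 CPM in KO cells (0.26 ± 0.05). The interaction was -0.32 ± 0.07 (edgeR FDR = 0.00285). *FNBP1* had 51.7, 50 and 53 CPM in *WT* DMSO and 54.2 and 58.8 CPM in *WT* 5-FU libraries, and 81.5, 78.6 and 81.2 CPM in KO DMSO and 70.7, 70.3 and 70.2 CPM in KO 5-FU libraries. Its interaction was -0.32 ± 0.08 (edgeR FDR = 0.00568). *GPR107*, whose RefSeq start lies back to back with that of *FNBP1*, changed by -0.46 ± 0.06 in *WT* and -0.50 ± 0.05 in KO cells, with an interaction of -0.04 ± 0.08. In the third pair, *DDX31* changed by 0.27 ± 0.06 in *WT* and 0.35 ± 0.05 in KO cells, and *GTF3C4* by -0.18 ± 0.05 and -0.04 ± 0.05. The 5-FU changes within each pair thus lay apart by more than their SE in *WT* cells, while the difference between paired genes was not tested.

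Many of the members work in complexes whose other parts are encoded elsewhere. To see whether these partners differed as well, 181 genes outside the region were taken in 14 lists, each named for the members it belongs to. In DMSO 3 of the 181 were higher and 2 lower in KO cells by both criteria in edgeR (1.66% and 1.10%), and in 5-FU 4 were higher and 3 lower. The shares over all tested genes are given above. By FDR alone 31 were higher and 53 lower in DMSO, and 40 higher and 51 lower in 5-FU. By the same measure 24.5% of all tested genes were higher and 21.9% lower in DMSO, and 21.6% and 28.0% in 5-FU. The median difference of the 181 was -0.07 in DMSO and -0.02 in 5-FU, whereas that of the 59 members was 0.60 and 0.56. These libraries and the scaling are the same as for the members.

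Among the partners of *SURF4* and *SEC16A* in export from the ER (13 genes, median 0.23 in DMSO), *SEC24D*, a cargo-binding subunit of the COPII coat on chromosome 4, had 35.0 ± 3.32 CPM (SD, n = 3) in *WT* and 118 ± 2.17 CPM (n = 3) in KO cells in DMSO. Its log2 difference was 1.75 ± 0.06 in DMSO (edgeR FDR = 5.92e-12) and 1.62 ± 0.08 in 5-FU (edgeR FDR = 1.60e-10). *LMAN1*, a cargo receptor for glycoproteins, was higher in 5-FU (0.62 ± 0.07, edgeR FDR = 3.05e-06) and at 0.54 ± 0.06 in DMSO, and its 5-FU value was 0.50 without *WT* 5-FU replicate 2. By FDR alone 7 of the 13 genes were higher and 1 lower in DMSO, beside 24.5% and 21.9% of all tested genes. In 5-FU 8 were higher, beside 21.6% of all tested genes, and 0 lower, beside 28.0%.

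In the synthesis of the dolichol-linked glycan and its transfer (21 genes, median 0.04 in DMSO), 2 genes were higher in DMSO. *ALG2*, a mannosyltransferase on chromosome 9 outside the region, was at 0.75 ± 0.06 (edgeR FDR = 3.39e-08) and stayed higher in 5-FU (0.64 ± 0.06, edgeR FDR = 7.61e-07). *SRD5A3*, which reduces polyprenol to dolichol, was at 0.69 ± 0.07 in DMSO (edgeR FDR = 6.81e-07) and at 0.15 ± 0.08 in 5-FU. *ALG6*, a glucosyltransferase, was higher in 5-FU (0.69 ± 0.09, edgeR FDR = 1.47e-05) and at 0.04 ± 0.08 in DMSO.

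Among 30 Mediator subunits (median -0.06 in DMSO), *MED30*, a gene of chromosome 8, was lower in KO cells, with 21.3 ± 2.02 CPM (SD, n = 3) in *WT* and 8.52 ± 0.508 CPM (n = 3) in KO cells in DMSO. Its difference was -1.32 ± 0.09 in DMSO (edgeR FDR = 1.26e-08) and -1.23 ± 0.11 in 5-FU (edgeR FDR = 1.68e-07). *PET117*, an assembly factor of cytochrome c oxidase, was lower in DMSO (-0.63 ± 0.12, edgeR FDR = 0.000328), but under the minimum fold change without *WT* DMSO replicate 2 (-0.55) or KO DMSO replicate 1 (-0.51). In 5-FU *HEXIM2*, an inhibitor of P-TEFb, was lower (-0.97 ± 0.10, edgeR FDR = 8.56e-07), and so was *ANAPC15* of the APC/C (-0.60 ± 0.11, edgeR FDR = 0.000243), but at -0.53 without *WT* 5-FU replicate 2 and -0.57 without KO 5-FU replicate 3.

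Of the 29 other genes of the nuclear pore and mRNA export, 21 were lower and 1 higher in KO cells in DMSO by FDR alone, with a median of -0.24. In 5-FU 5 were lower and 6 higher, with a median of 0.00. No gene of this list passed the minimum fold change in edgeR in either treatment, while 23 in DMSO and 14 in 5-FU had an unadjusted p below 0.05. Of all 16123 tested genes 8503 in DMSO and 8975 in 5-FU had such a p in edgeR. The members *NUP188*, *NUP214* and *GLE1* of the same structure were above 0 in both treatments. By FDR alone, of 10 genes of coenzyme Q synthesis 6 were lower and 2 higher in DMSO, and 3 lower and 0 higher in 5-FU. Of 15 genes of the APC/C 6 were lower and 0 higher in DMSO, and 8 lower and 1 higher in 5-FU. Of 22 assembly factors of cytochrome c oxidase 6 were lower in DMSO and 16 in 5-FU, with 0 higher in either. Of all tested genes 21.9% were lower by FDR alone in DMSO and 28.0% in 5-FU. The lists of H3K4 methyltransferases (13 genes), P-TEFb and elongation (12), TFIIIC (4), the H3K9 methyltransferase complex (3), the TSC complex (2), tRNA thiolation (3) and other LRRC8 channel subunits (4) had medians between -0.24 and 0.11 in DMSO.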

How the data were processed

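RNA of HCT116 cells was sequenced by the authors, who aligned the reads to the human genome (GRCh38) with CLC Genomics Workbench and deposited raw counts of reads per gene symbol for each library. Libraries were grouped by the labels. Scaling (upper quartile), the low-count filter and the thresholds follow the study's methods, and the test was the quasi-likelihood test of edgeR 4.0.16 in R 4.3.3 with 1 mean per group over 11 libraries, tested on simulated data. SE is the log2 change divided by the square root of F. FDR is adjusted over all 16123 genes. The authors tested differential expression with DESeq2 and the interaction with edgeR, whereas DESeq2 1.42.0 was an alternative here. The members, groups and lists were chosen with earlier results of these data known. Named were, by rule, the largest and smallest members, those called, called partners and border genes, and others after their values were seen. Some genes that the rules name are not reported here. Positions come from GENCODE release 44, promoters and microRNAs from RefSeq. A factor for unwanted variation (RUVg), a step that the authors also used, served as an alternative only. The authors' control genes are not given in the sources used here. Control genes were therefore chosen here, as all tested genes but the 5000 with the smallest p, so that this factor is not the authors' own.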

Additional observations from a re-analysis of the deposited data

Results flagged for a closer look

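For 18 members the change after 5-FU differed between genotypes by the interaction test of edgeR at an FDR below 0.05, although none of them passed the minimum fold change as well. Of all tested genes 26.1% passed by FDR alone, so that 18 of 59 is near the share over all genes. The change was higher in KO than in *WT* cells, on the log2 scale, for *NUP188* (0.52), *LRRC8A* (0.45), *SLC25A25* (0.44), *TOR1A* (0.31), *TTF1* (0.28), *TOR1B* (0.28), *GLE1* (0.26) and *NUP214* (0.26). It was lower in KO cells for *URM1* (-0.50), *NAIF1* (-0.44), *MED22* (-0.39), *ZER1* (-0.33), *POMT1* (-0.33), *USP20* (-0.33), *SPTAN1* (-0.32), *FNBP1* (-0.32), *COQ4* (-0.32) and *SH3GLB2* (-0.31). The *WT* 5-FU group rests on 2 libraries, in which the members' median relative to that group's mean was 0.06 and -0.06.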

How the results depend on the processing

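All members had at least 247 counts in every library, whereas the *WT* 5-FU group rests on 2 libraries. The median KO over *WT* difference of the members was 0.58 with DESeq2 and 0.42 with 1 RUVg factor in DMSO. In 5-FU it was 0.60 with TMM factors, 0.61 with DESeq2, 0.47 with RUVg and 0.60 with the identical library used as labelled. The members called higher and lower after 5-FU in *WT* cells (4 and 2) were 24 and 13 without a minimum fold change, 0 and 0 with RUVg (3 and 0 of all 16123 genes) and with the identical library (0 and 0 of all genes in edgeR, 6467 at an unadjusted p under 0.05). Lower were 1 with at least 20 counts in every library, 1 without a filter and 0 with glmTreat. In KO cells (2 and 0) they were 24 and 19 without a minimum fold change, 4 higher with DESeq2, 0 higher with RUVg (1 of all genes), and 1 lower with at least 20 counts in every library. Interaction calls (0) were 1 with DESeq2, 18 without a minimum fold change and 2 with RUVg (419 higher and 466 lower of all genes). Partners called higher in DMSO (3) were 31 without a minimum fold change. Partners called lower in DMSO (2) were 5 with TMM, DESeq2 or no filter, 53 without a minimum fold change and 1 with glmTreat. Partners called higher in 5-FU (4) were 7 with DESeq2, 40 without a minimum fold change, 1 with glmTreat and 2 with the identical library. Partners called lower in 5-FU (3) were 51 without a minimum fold change, 5 with RUVg and 10 with the identical library. With RUVg signs reversed for *NAIF1* in DMSO (-0.05), for *AK1* (-0.53), *RALGDS* (-1.94), *SLC27A4* (-2.17) and *SET* (0.82) in *WT* and for *AK1* (-0.55) and *RALGDS* (-1.35) in KO cells after 5-FU, none of the latter with an edgeR FDR below 0.05. The cause was not tested. Leaving out 1 library at a time gave medians of 0.60 to 0.63 in DMSO and 0.45 to 0.62 in 5-FU (0.62 without replicate 2 and 0.45 without replicate 3 of *WT* 5-FU), *WT* calls of 3 to 7 higher (7 without *WT* DMSO replicate 2 or *WT* 5-FU replicate 3) and 1 to 3 lower (1 without *WT* DMSO replicate 1 or 2 or *WT* 5-FU replicate 3), KO calls of 2 to 3 and 0 to 2 (2 without KO DMSO replicate 1), 0 to 1 interaction calls (1 without either *WT* 5-FU replicate), and partner calls of 3 to 4 higher and 1 to 6 lower in DMSO (1 without *WT* DMSO replicate 2, 6 without replicate 3) and 4 to 5 and 3 to 5 in 5-FU (5 lower without *WT* 5-FU replicate 3). Libraries of the same number did not deviate together by the labels (correlations of -0.0914 to 0.0782) or by the numbers in the file headers (-0.15 to 0.0441). The header numbers differ from the labels for the *WT* 5-FU libraries, so that the pairing is uncertain. With the replicate block by the labels the *WT* calls were 4 higher and 2 lower. The identical library and a block by the numbers in the file headers were chosen after seeing the data.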
